A study of Homo sapiens with 44 samples.

Results

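The endoplasmic reticulum (ER) folds the collagens, cytokines and other proteins that a fibroblast secretes, and 38 genes that build, run or regulate this folding machinery were followed here in cytokine-stimulated colon fibroblasts. The rule lists the members by symbol and uses no measured value, although the members were chosen with earlier results of these data known. All 38 are symbols of the count table, which lists 40663. They comprised 11 chaperones and co-chaperones, 7 genes of disulfide formation, 2 prolyl isomerases, 6 stress sensors and transcription factors, 4 genes of ER-associated degradation, 6 genes of entry into the ER and 2 coat genes of export from it. Of these, 37 passed the filter on low counts, together with 9513 genes in all. The member that did not pass was EIF2AK3, which encodes the stress sensor PERK and had no count in 32 of 44 libraries.

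Bulk RNA-seq was made from Ccd-18Co, a fibroblast line from human colon that is a single line, so that all replicates are cultures of the same cells. The 44 libraries formed 11 groups of 4 replicates, and cells of every group were kept in serum-free medium for 72 h and collected after 24 h more. The groups were unstimulated cells and cells given IFNα, IFNγ, TNF, TGF-β1, oncostatin M (OSM), IL-22, IL-17A, IL-13 or IL-6 at 10 ng/ml, or IL-1β at 0.1 ng/ml; IL-1β, IFNα, IFNγ and TGF-β1 are IL1B, IFNA, IFNG and TGFB1 in the sample labels. The IL-1β dose of 0.1 ng/ml is that of the study's methods, whereas a figure legend on the same experiment gives a lower dose. The labels do not say whether replicates were separate experiments, so p-values measure the spread between these libraries, which may be technical.

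Totals ranged from 742173 to 2213424 estimated counts per library, which is shallow, and a member with few counts could differ without being called. All 10 fibroblast markers examined were measured, whereas CDX2, CD3E and CD79A had no count in any library and the endothelial markers summed to at most 2.65 CPM (counts per 1000000 counts of the scaled library size). The 5 epithelial markers summed to at most 26.6 CPM. CD68 was the exception among leukocyte markers and was called higher with both interferons, where the leukocyte list summed to 38.0 to 73.8 CPM with IFNα and 8.31 to 20.6 CPM with IFNγ, and its part in the interferon results was not tested. Replicates of IFNγ differed most. Over all genes, IFNγ replicate 4 differed from replicate 2 by a chi-square of 33.4 per degree of freedom, where sampling noise gives about 1. It differed from replicate 3 by 5.08. The widest pair of any other group was unstimulated replicates 1 and 3, at 25.2, and unstimulated cells are the reference for every cytokine. TGF-β1 replicates 1 and 4 reached 22.2. Results of IFNγ are therefore given with and without replicates 1 and 2 and replicates 3 and 4. No pair of replicates was left out of another group. Fewer cells of a kind and less RNA per cell cannot be told apart in bulk samples.

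Proteins enter the ER through the SEC61 channel as they are made, where the Hsp70-type chaperone BiP (HSPA5), the Hsp90-type chaperone GRP94 (HSP90B1) and the lectin chaperones calnexin (CANX) and calreticulin (CALR) assist folding while protein disulfide isomerases form disulfide bonds. When unfolded proteins accumulate, the sensors IRE1 (ERN1), ATF6 and PERK start the unfolded protein response. IRE1 splices XBP1 mRNA into a form that encodes a transcription factor, cleaved ATF6 is a transcription factor itself, and both raise chaperone and degradation genes. PERK slows translation and raises ATF4 and its amino acid and stress targets.

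ATF6 and XBP1 are known to act through the ER stress response element (ERSE), written here as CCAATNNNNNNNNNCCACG, and through ERSE-II, written as ATTGGNCCACG. Both were searched on either strand in RefSeq windows of 300 bases (GRCh38.p14) that run from 250 bases before to 50 bases after a transcript start. The motifs share CCACG, and the CCAAT of the former is ATTGG on the opposite strand in the latter, but their order and spacing differ. The promoter table matched 34 of 38 members, all but PDIA3, FKBP10, FKBP14 and SEC24D. An ERSE stood in the window of 8 members (23.5% of those matched) and an ERSE-II in that of 3 others (8.82%). Of the 7824 genes in that table that were tested here, 0.192% and 0.141% held them. The shares were 0.0916% and 0.0696% of all 27305 genes in that table and 0.0769% and 0.0541% of its 35116 windows. The motifs were chosen as known elements of this response, so these shares are descriptions. The elements found in members whose mRNA was called in a comparison below are shown, with the matched element in capitals and the gene's own strand printed 5′ to 3′. Each is an ERSE or an ERSE-II, and other called members held neither.
HSPA5, chr9:125241371-125241429, minus strand: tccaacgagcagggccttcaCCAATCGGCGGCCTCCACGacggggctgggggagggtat
HSP90B1, distal, chr12:103930196-103930254, plus strand: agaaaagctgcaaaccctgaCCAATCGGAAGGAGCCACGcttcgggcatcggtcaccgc
HSP90B1, proximal, chr12:103930301-103930359, plus strand: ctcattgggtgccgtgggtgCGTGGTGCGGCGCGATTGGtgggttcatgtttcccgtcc
PDIA6, chr2:10812833-10812891, minus strand: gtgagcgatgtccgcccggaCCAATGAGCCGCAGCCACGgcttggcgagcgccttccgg
CALR, chr19:12938364-12938422, plus strand: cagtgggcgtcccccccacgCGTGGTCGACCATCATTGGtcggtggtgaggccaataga
CANX, chr5:179698758-179698816, plus strand: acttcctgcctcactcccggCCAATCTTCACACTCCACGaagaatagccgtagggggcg
SERP1, chr3:150546690-150546746, minus strand: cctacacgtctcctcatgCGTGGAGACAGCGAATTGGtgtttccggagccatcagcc
HYOU1, distal, chr11:119057360-119057410, minus strand: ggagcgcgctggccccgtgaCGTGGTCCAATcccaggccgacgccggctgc
HYOU1, proximal, chr11:119057254-119057304, minus strand: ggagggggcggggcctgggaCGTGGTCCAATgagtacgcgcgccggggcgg
SDF2L1, chr22:21642094-21642144, plus strand: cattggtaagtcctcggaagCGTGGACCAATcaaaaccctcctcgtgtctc

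Both HYOU1 elements read the same 11 letters, at 185 and 79 bases before the start, and the HSPA5 element begins 66 bases before it. XBP1, CRELD2 and HERPUD1 also held an element and were called in no comparison of a cytokine with unstimulated cells. The called members DNAJB9, DNAJB11, DNAJC3, MANF, PDIA4, TXNDC5, EDEM1, SEL1L, SEC61B, SSR1 and SPCS2, whose changes are described below, held neither motif within these windows. This says only that these letters are not there.

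Across the 11 groups together, 26 of 37 members (70.3%) differed somewhere at an adjusted p under 0.05, against 35.7% of all genes tested (quasi-likelihood test of edgeR, adjusted over all genes tested after Benjamini and Hochberg, as for every adjusted p here). These shares are not matched for abundance, and the members were chosen with earlier results known, so the contrast is a description. DNAJB9, a co-chaperone of BiP, had the smallest value of the members (adjusted p = 7.82e-11). It was followed by FKBP14, a prolyl isomerase of procollagen folding (2.64e-09), and DNAJC3, another BiP co-chaperone (3.17e-09). In comparisons of single cytokines with unstimulated cells, 20 of 37 members were called at least once, as were 27.4% of all genes tested. These 10 comparisons share the same 4 unstimulated libraries, so values in different comparisons are given side by side and are not independent of each other.

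**Figure D1:**
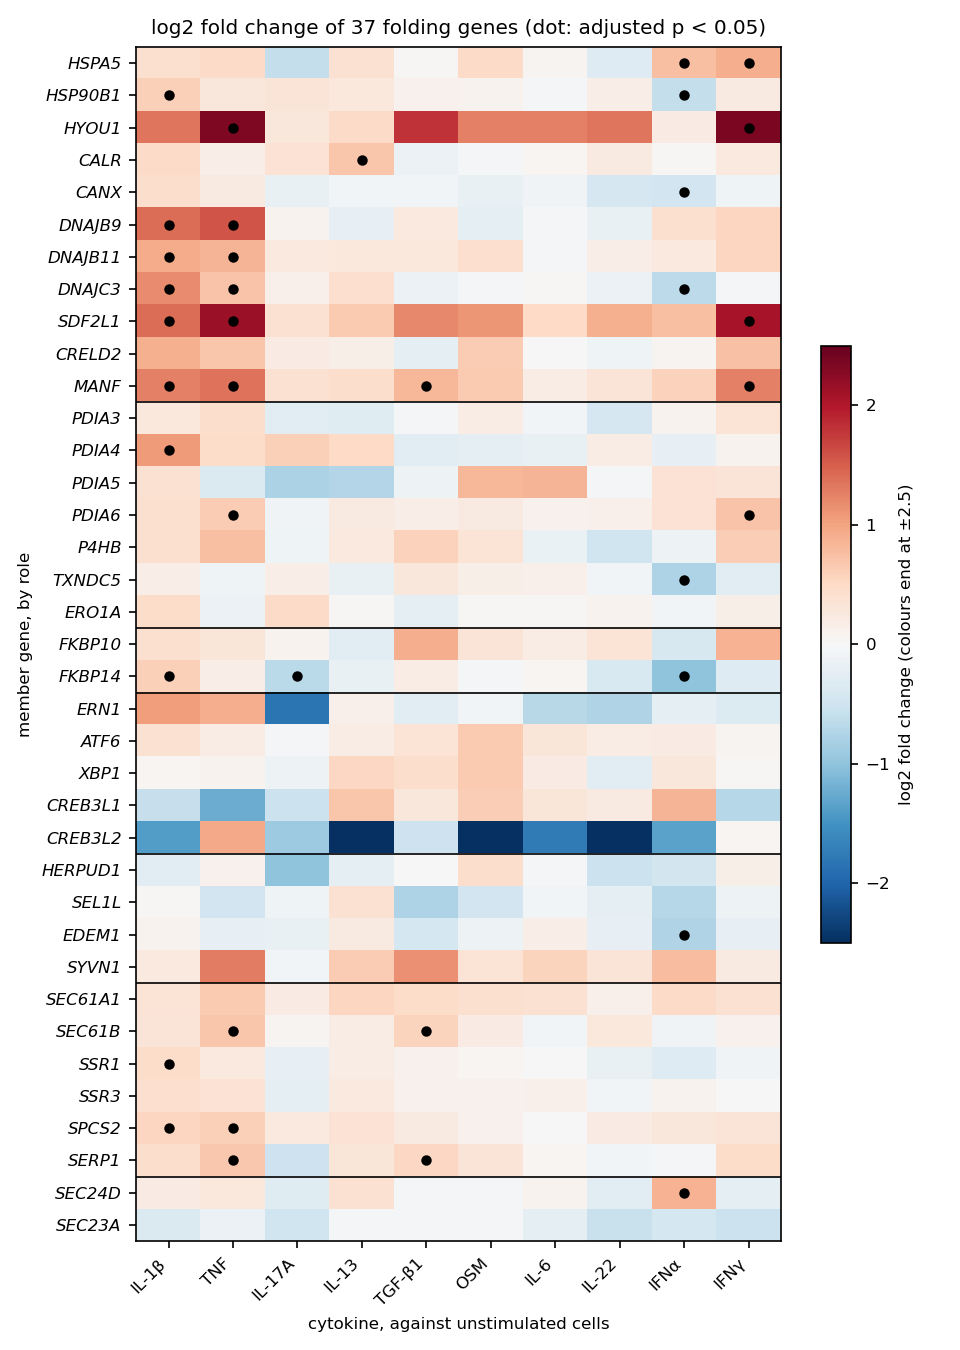
Each row is 1 of the 37 members tested, grouped by role between horizontal lines, each column is 1 cytokine against unstimulated cells, the colour is the log2 fold change (ending at ±2.5) and a dot marks an adjusted p under 0.05. IL-1β and TNF each have 10 dots, all on rises, IFNα has 2 on rises and 6 on falls, and the columns of OSM, IL-6 and IL-22 have none.

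IL-1β raised BiP co-chaperones, a disulfide isomerase and parts of the entry machinery. It raised 10 members and lowered 0, while 3.46% of all genes tested rose and 3.92% fell. By role, the rises were 6 of 11 chaperones and co-chaperones, 1 of 7 disulfide genes, 1 of 2 prolyl isomerases and 2 of 6 entry genes. None of the 5 sensors and factors tested and none of the 4 degradation genes was called. The median log2 fold change was 0.41 over the members and -0.01 over all genes tested, and 33 of 37 members were above 0.

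DNAJB9, which brings clients to BiP and restrains IRE1, was at 128, 136, 161 and 179 CPM in unstimulated cells and at 309, 300, 473 and 509 CPM with IL-1β. All stimulated libraries lay above all unstimulated ones, with a log2 fold change of 1.40 ± 0.23 (SE, n = 4 per group, edgeR adjusted p = 1.83e-05). DNAJC3, an ER lumen co-chaperone, was at 1139, 1559, 1708 and 1551 CPM without stimulation and at 3457, 3425, 3328 and 3391 CPM with IL-1β. Its groups did not overlap either, and the stimulated values were the tighter set (log2 fold change 1.19 ± 0.20, edgeR adjusted p = 1.97e-05). PDIA4, a protein disulfide isomerase, went from 233, 281, 405 and 339 CPM to 622, 648, 713 and 647 CPM (log2 fold change 1.07 ± 0.18, edgeR adjusted p = 2.87e-05). As for the co-chaperones, the lowest stimulated library exceeded the highest unstimulated one.

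MANF, a secreted and ER-retained stress protein that binds BiP, was at 59.7, 54.7, 57.0 and 32.1 CPM without stimulation and at 121, 68.9, 138 and 158 CPM with IL-1β (log2 fold change 1.25 ± 0.25, edgeR adjusted p = 0.00048). Replicate 2 of IL-1β was the lowest of its group and still stood above the unstimulated range. HSP90B1, whose client proteins include integrins and Toll-like receptors, was at 1668, 2027, 2140 and 2141 CPM and rose to 2714, 2824, 3460 and 3092 CPM (log2 fold change 0.60 ± 0.12, edgeR adjusted p = 0.000539). This is a smaller fold than that of the co-chaperones and again without overlap.

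The other rises with IL-1β were in SDF2L1, part of the DNAJB11 complex that keeps BiP clients soluble (log2 fold change 1.40), in DNAJB11 itself (0.93), in FKBP14 (0.59), in the signal peptidase subunit SPCS2 (0.54) and in SSR1, a translocon-associated subunit (0.46). BiP itself was at 1416, 1059, 740 and 893 CPM without stimulation and at 1321, 1105, 1347 and 1669 CPM with IL-1β, and these overlapping values gave 0.41 ± 0.23 (edgeR adjusted p = 0.386). SDF2L1 lost its call without replicates 2 or 4 of unstimulated cells or 3 or 4 of IL-1β, with log2 fold changes of 1.21 to 1.37 and adjusted p of 0.0647 to 0.115. FKBP14 (0.45 to 0.48) lost it without replicate 3 of either group. SSR1 (0.32 to 0.48) lost it without unstimulated replicates 3 or 4 or IL-1β replicates 1 or 3. The other 7 calls held in each of the 8 fits that leave out 1 library.

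TNF also raised 10 members and lowered 0, against 5.37% of all genes rising and 6.09% falling. The rises were 6 chaperones and co-chaperones, the disulfide isomerase PDIA6 and 3 of 6 entry genes. The members' median log2 fold change was 0.44, and -0.02 over all genes. The 3 members HYOU1, SDF2L1 and DNAJB9 were called with an absolute log2 fold change above 1.5, which 4.19% of all genes were.

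DNAJB9 with TNF was at 298, 459, 466 and 566 CPM, all above the 128 to 179 CPM of unstimulated cells (log2 fold change 1.57 ± 0.23, edgeR adjusted p = 2.15e-06). MANF was at 115, 112, 151 and 142 CPM against an unstimulated maximum of 59.7 CPM (1.35 ± 0.25, edgeR adjusted p = 0.00013). SDF2L1 was at 40.6, 16.8, 33.1 and 27.3 CPM without stimulation and at 125, 90.4, 177 and 136 CPM with TNF (2.15 ± 0.41, edgeR adjusted p = 0.000201). In all 3 genes no stimulated library fell within the unstimulated range.

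Among the entry genes, SPCS2 was at 509, 662, 761 and 704 CPM without stimulation and at 990, 1018, 1007 and 942 CPM with TNF (log2 fold change 0.59 ± 0.12, edgeR adjusted p = 0.000433). SEC61B, the beta subunit of the translocation channel, went from 142, 111, 120 and 127 CPM to 222, 189, 232 and 170 CPM (0.70 ± 0.16, edgeR adjusted p = 0.00138). The groups of both genes were separate. SERP1, which stabilises membrane proteins during stress, rose by a log2 fold change of 0.67.

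The remaining rises with TNF were in HYOU1 (log2 fold change 2.33), DNAJB11 (0.84), DNAJC3 (0.72) and PDIA6 (0.63). HYOU1 encodes GRP170, an exchange factor of BiP, and its counts were few, from 2 to 11 per unstimulated library and 21 to 38 with TNF. Its CPM were 2.45, 5.10, 1.41 and 7.51 without stimulation and 14.8, 22.4, 25.5 and 20.4 with TNF, so the groups were apart but the denominator of the fold is imprecise. Without unstimulated replicates 1 or 3 its call was lost (log2 fold change 2.08 to 2.13, adjusted p 0.0527 to 0.062). PDIA6 lost its call without unstimulated replicates 3 or 4 or TNF replicate 4 (0.57 to 0.58). The other 8 calls held whichever library was left out. BiP was at 1085, 1083, 1730 and 1775 CPM with TNF and was not called (log2 fold change 0.47 ± 0.23, edgeR adjusted p = 0.204). Its TNF replicates 1 and 2 lay within the unstimulated range of 740 to 1416 CPM, and replicates 3 and 4 lay above it.

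**Figure D2:**
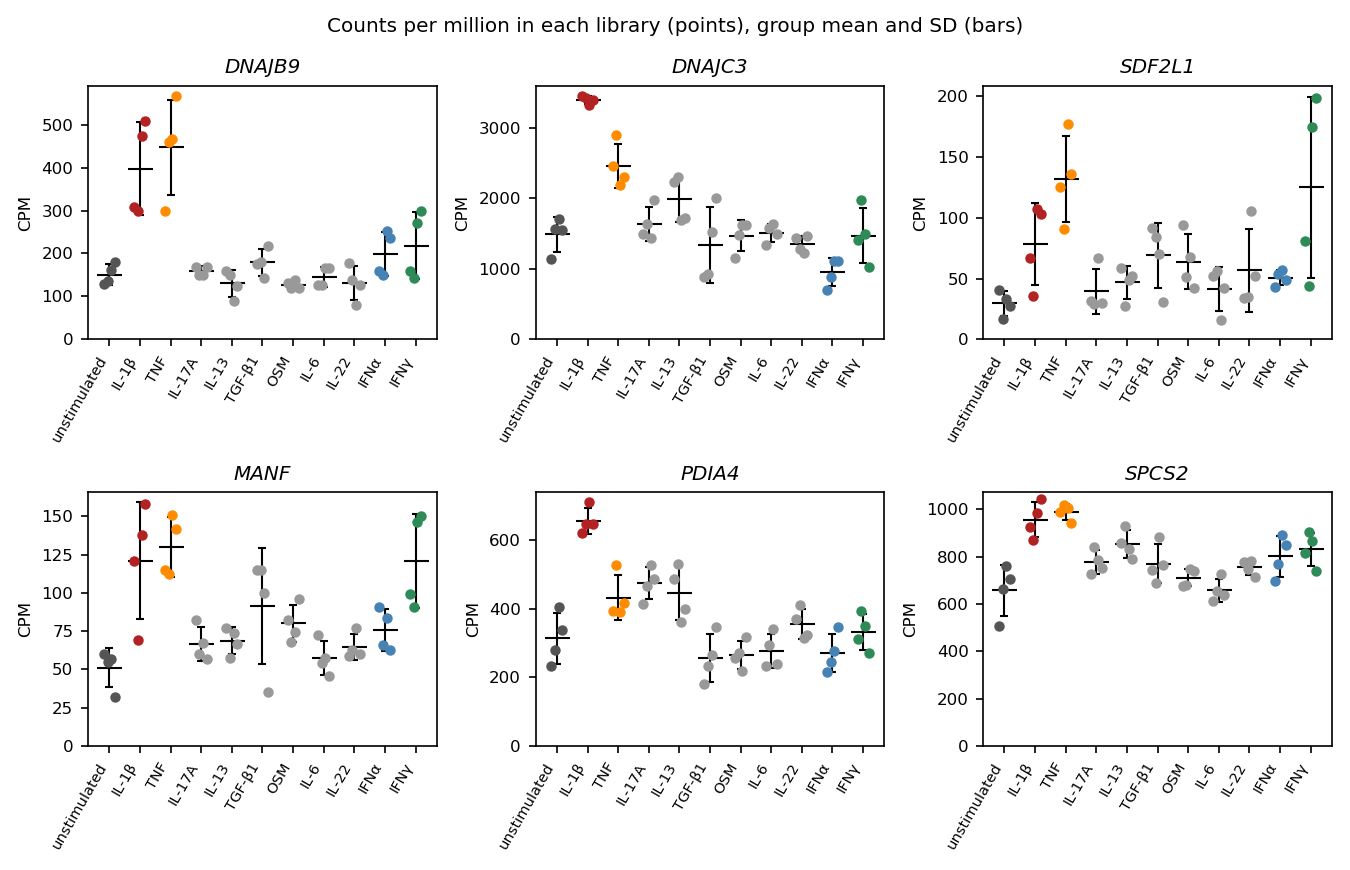
Points are CPM in each library, by group along the x axis, and bars are the group mean and SD (n = 4) for 6 members. DNAJB9 and MANF stand above the unstimulated libraries with both IL-1β and TNF, and PDIA4 with IL-1β reaches 622 to 713 CPM against 233 to 405 CPM without stimulation.

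Compared directly, TNF and IL-1β did not differ in any member at an adjusted p under 0.05, where 0.452% of all genes were higher with TNF and 0.694% were lower. In this comparison 7 members and 1091 genes in all had an unadjusted p under 0.05. DESeq2 called 0 members and gave no adjusted p for 2. The smallest p among members was that of PDIA4, at 394, 529, 392 and 416 CPM with TNF, all below the IL-1β libraries (log2 fold change -0.60 ± 0.18, edgeR adjusted p = 0.0823). SDF2L1 differed by 0.76 ± 0.39 and DNAJC3 by -0.47 ± 0.19. These errors leave room for differences of either size, and a missed threshold does not show that the 2 cytokines act alike. Doses differed too, 0.1 ng/ml of IL-1β by the study's methods against 10 ng/ml of TNF, so dose and cytokine cannot be told apart.

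Other ER genes were read against the same shares of all genes, 3.46% up and 3.92% down with IL-1β and 5.37% up and 6.09% down with TNF. Of 19 other translocon, signal peptidase and oligosaccharyltransferase subunits, 6 rose and 0 fell with IL-1β and 7 rose and 0 fell with TNF, with list medians of 0.49 and 0.43 on the log2 scale. The smallest adjusted p was that of SEC61G, the gamma subunit of the channel, in both comparisons, from 163 ± 17.6 CPM (SD, n = 4) to 285 ± 20.3 with IL-1β and 304 ± 7.99 with TNF (edgeR adjusted p = 4.12e-05 and 5.23e-06). Of 14 other degradation genes tested, 2 rose and 0 fell with each cytokine. Of 20 other COPII and ER exit genes, 2 rose and 1 fell with IL-1β and 2 rose and 0 fell with TNF, of which LMAN1, a cargo receptor, had the smallest adjusted p in both (log2 fold change 0.80 and 0.55). These counts are small, and the lists were not tested as sets. Other folding enzymes went both ways, with 2 of 20 up and 2 down for IL-1β and 3 up and 2 down for TNF. FKBP2, an ER-resident prolyl isomerase, had the smallest adjusted p of these with TNF (log2 fold change 1.53 ± 0.23, edgeR adjusted p = 4.13e-06).

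Genes called in the PERK and amino acid response arm went the other way. Of 11 genes of this arm tested, 0 rose and 3 fell with IL-1β, and 0 rose and 3 fell with TNF, with list medians of -0.68 and -0.15. NUPR1, a stress-induced chromatin protein, had the smallest adjusted p of these with IL-1β and fell from 738 ± 86.6 to 183 ± 39.7 CPM (log2 fold change -2.01 ± 0.24, edgeR adjusted p = 5.41e-08). ASNS, asparagine synthetase and a target of ATF4, led those with TNF, from 126 ± 21.3 to 16.8 ± 4.93 CPM (-2.91 ± 0.32, edgeR adjusted p = 4.16e-09). Of 4 other stress regulators tested, 1 rose with TNF, CREB3, a membrane-bound transcription factor (17.8 ± 10.6 to 75.5 ± 22.8 CPM, edgeR adjusted p = 0.00233), and 0 were called with IL-1β. Of the fibroblast markers, 5 of 10 fell with IL-1β and 6 of 10 with TNF. Their summed level was 30255 to 42205 CPM in unstimulated cells, 24083 to 32414 CPM with IL-1β and 21516 to 27827 CPM with TNF, and its part in the members' rises was not tested.

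IFNα lowered more members than it raised. Of the members, 2 rose, where 4.99% of all genes did, and 6 fell, where 4.86% did, and the members' median log2 fold change was 0.03. FKBP14 was at 170, 192, 105 and 143 CPM without stimulation and at 79.3, 90.9, 64.3 and 67.3 CPM with IFNα (log2 fold change -1.01 ± 0.17, edgeR adjusted p = 1.19e-05). HSP90B1 was at 1192, 1252, 1521 and 1351 CPM, below the unstimulated minimum of 1668 CPM (-0.59 ± 0.12, edgeR adjusted p = 0.000501). EDEM1, a lectin that sends misfolded glycoproteins to degradation, was at 205, 242, 193 and 162 CPM and fell to 105, 124, 149 and 98.4 CPM (-0.75 ± 0.18, edgeR adjusted p = 0.00208). In these 3 genes the groups did not overlap and the call held in all 8 fits that leave out a library.

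TXNDC5, a disulfide isomerase linked to collagen folding, was at 211, 144, 193 and 223 CPM and fell to 114, 115, 129 and 92.2 CPM (log2 fold change -0.78 ± 0.22, edgeR adjusted p = 0.0126). SEC24D, a COPII coat protein that takes procollagen out of the ER, rose from 80.8, 95.5, 40.8 and 81.3 CPM to 176, 145, 106 and 118 CPM (0.87 ± 0.25, edgeR adjusted p = 0.018). Neither gene's groups overlapped. BiP was at 2087, 1901, 1658 and 1294 CPM, of which only replicate 4 fell inside the unstimulated range, and was called as a rise of 0.76 on the log2 scale. DNAJC3 (-0.65) and CANX (-0.48) were the other falls.

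These last calls were less stable than those of FKBP14, HSP90B1 and EDEM1. The count of members called dropped to 5 without unstimulated replicate 2 or IFNα replicate 2 and to 4 without unstimulated replicate 4 or IFNα replicate 1. The shares of all genes called in those fits are not given, so this drop may not be particular to the members. CANX kept its call in 1 of the 8 fits that leave out a library (log2 fold change -0.49 to -0.41 where lost), and HSPA5 (0.66 to 0.78) and DNAJC3 (-0.62 to -0.51) in 3. TXNDC5 was lost without replicate 4 of either group (-0.69 to -0.66), and SEC24D without unstimulated replicate 3 or IFNα replicate 1 (0.70 to 0.73).

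IFNγ raised 5 members and lowered 0, against 5.52% of all genes rising and 5.13% falling, with a members' median log2 fold change of 0.14. Of the 5, HYOU1 and SDF2L1 were called with an absolute log2 fold change above 1.5, as were 3.53% of all genes. SDF2L1 was at 80.6, 44.0, 175 and 199 CPM against 16.8 to 40.6 CPM without stimulation (log2 fold change 2.07 ± 0.41, edgeR adjusted p = 0.000415). MANF was at 99.4, 90.5, 146 and 150 CPM against 32.1 to 59.7 CPM (1.25 ± 0.25, edgeR adjusted p = 0.000469). These 2 genes were above the unstimulated range in all 4 libraries.

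BiP was at 1445, 1029, 2337 and 2908 CPM with IFNγ, so replicate 2 lay within the unstimulated range of 740 to 1416 CPM and replicates 3 and 4 were far above it (log2 fold change 0.91 ± 0.23, edgeR adjusted p = 0.00554). PDIA6, a disulfide isomerase that acts with BiP, was at 864, 701, 563 and 583 CPM without stimulation and at 1019, 723, 1473 and 1259 CPM with IFNγ (0.72 ± 0.18, edgeR adjusted p = 0.00616). HYOU1 was at 12.1, 2.49, 31.2 and 38.4 CPM, from 3 to 54 counts (2.35 ± 0.68, edgeR adjusted p = 0.0168). In all 3 genes replicate 2 overlapped the unstimulated libraries.

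All 5 calls were lost without replicates 3 and 4 of IFNγ. Without that pair edgeR called 0 members, where 3.78% of all genes were called in either direction, and 5 members had an unadjusted p under 0.05, and the log2 fold changes were 1.06 for SDF2L1, 0.89 for MANF, 0.26 for HSPA5, 0.36 for PDIA6 and 0.83 for HYOU1, with adjusted p of 0.233, 0.0871, 0.678, 0.433 and 0.703. Without replicates 1 and 2 instead, 9 members and 13.7% of all genes were called, so the share over all genes moved in the same direction as the members' count, and the same log2 fold changes were 2.66, 1.55, 1.36, 1.02 and 3.09. Leaving out only replicate 4 lost HSPA5 (0.66, adjusted p = 0.0735), and HYOU1 was lost without unstimulated replicates 1 or 3 or IFNγ replicates 3 or 4 (1.90 to 2.15). Without replicate 2 the count was 8, and the share of all genes called in that fit is not given. The summed fibroblast markers ran from 17390 to 34521 CPM within the IFNγ group, and their part in this split was not tested.

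**Figure D3:**
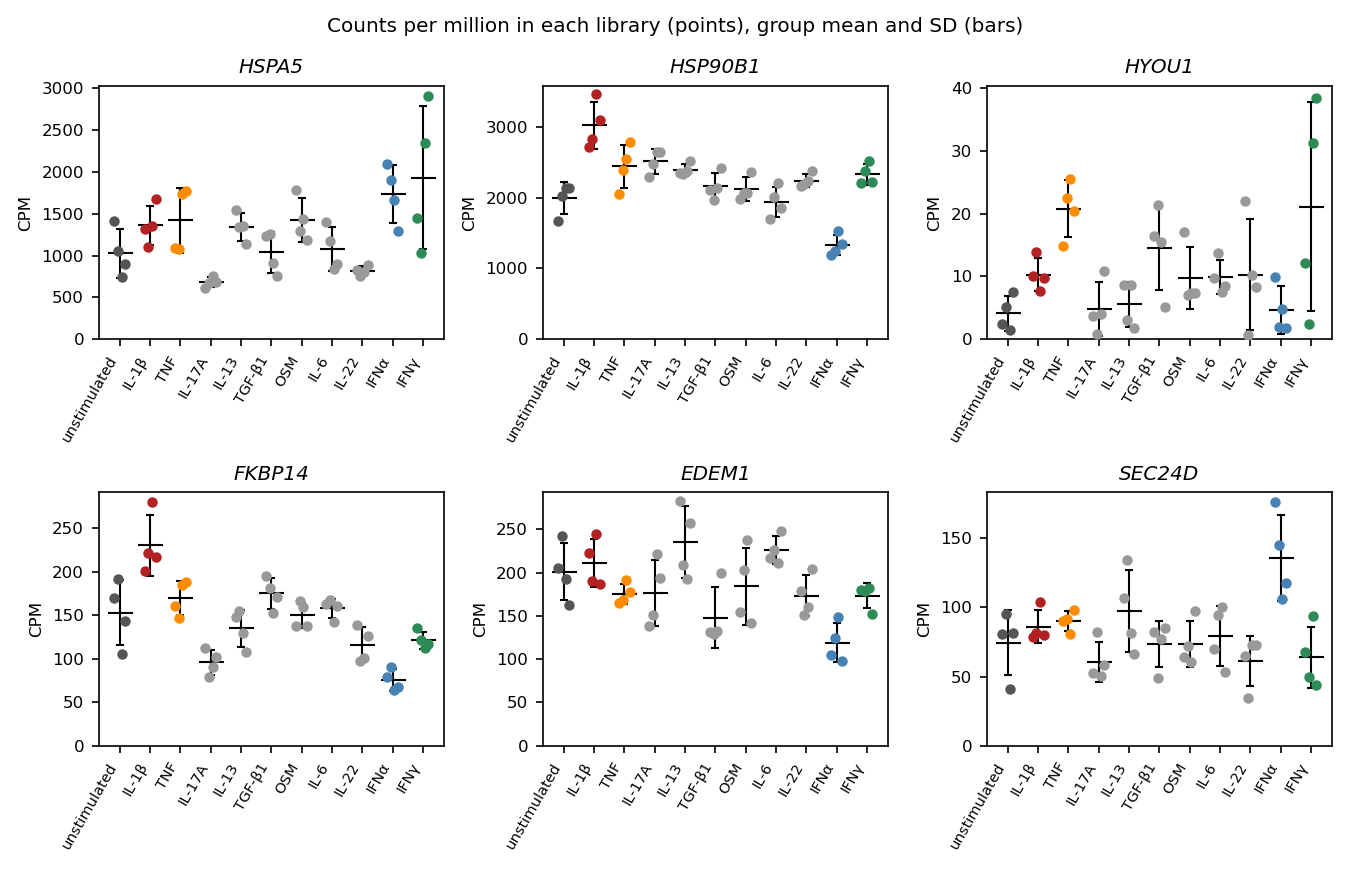
Points are CPM in each library, by group along the x axis, and bars are the group mean and SD (n = 4) for 6 members. With IFNα, FKBP14, HSP90B1 and EDEM1 lie below every unstimulated library and SEC24D lies above, while the IFNγ libraries of HSPA5 spread from 1029 to 2908 CPM and those of HYOU1 from 2.49 to 38.4 CPM.

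The 2 interferons differed when compared directly, which does not use the unstimulated libraries as the reference. In this comparison 7 members were lower with IFNα than with IFNγ, where 4.46% of all genes were, and 1 was higher, where 4.93% were. The members' median difference was -0.29 on the log2 scale, against -0.0 over all genes, and 27 of 37 members were below 0. That members' median was -0.15 without IFNγ replicates 3 and 4 and -0.5 without IFNγ replicates 1 and 2. HSP90B1 was at 1192 to 1521 CPM with IFNα and at 2211, 2377, 2522 and 2215 CPM with IFNγ (log2 fold change -0.81 ± 0.12, edgeR adjusted p = 5.82e-06). FKBP14 was at 64.3 to 90.9 CPM with IFNα against 135, 122, 112 and 117 CPM with IFNγ (-0.68 ± 0.17, edgeR adjusted p = 0.00462). SEC24D went the other way, at 106 to 176 CPM with IFNα against 67.8, 49.8, 93.6 and 44.1 CPM with IFNγ (1.10 ± 0.26, edgeR adjusted p = 0.00307). The groups of these 3 genes did not overlap, and their calls held without any single library.

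DNAJC3 was at 695, 886, 1110 and 1105 CPM with IFNα and at 1405, 1974, 1489 and 1024 CPM with IFNγ, which overlap (log2 fold change -0.63 ± 0.19, edgeR adjusted p = 0.0286). SDF2L1 was at 43.0, 54.0, 57.2 and 48.6 CPM with IFNα, where the lowest IFNγ library stood at 44.0 CPM, so the groups overlapped (-1.30 ± 0.40, edgeR adjusted p = 0.0286). HYOU1 (-2.15), EDEM1 (-0.54) and SERP1 (-0.49) were also lower with IFNα. HYOU1 was the 1 member called with an absolute log2 fold change above 1.5, as were 2.74% of all genes, while CREB3L1, at 1.54 ± 0.64, was past that fold and not called (edgeR adjusted p = 0.137) and is named after its value was seen. These 5 calls were lost in 4 to 7 of the 8 fits that leave out 1 library, and the count fell to between 3 and 5 members without IFNα replicates 1, 2 or 4 or IFNγ replicates 3 or 4. The shares of all genes called in those fits are not given, so that fall may not be particular to the members. Without IFNγ replicates 3 and 4, where 6 members and 5.36% of all genes were called, the difference was -0.78 for HSP90B1, -0.76 for FKBP14, 1.22 for SEC24D, -0.83 for DNAJC3 and -0.30 for SDF2L1, of which the last was no longer called (adjusted p = 0.811). Without IFNγ replicates 1 and 2, where 9 members and 9.19% of all genes were called, FKBP14 (-0.60, adjusted p = 0.0505) and DNAJC3 (-0.41, adjusted p = 0.287) were not called and the other 3 were, at -0.84, 0.99 and -1.89. Of the 3 proliferation markers, 2 were lower with IFNα than with IFNγ, and their part in these differences was not tested.

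**Figure D4:**
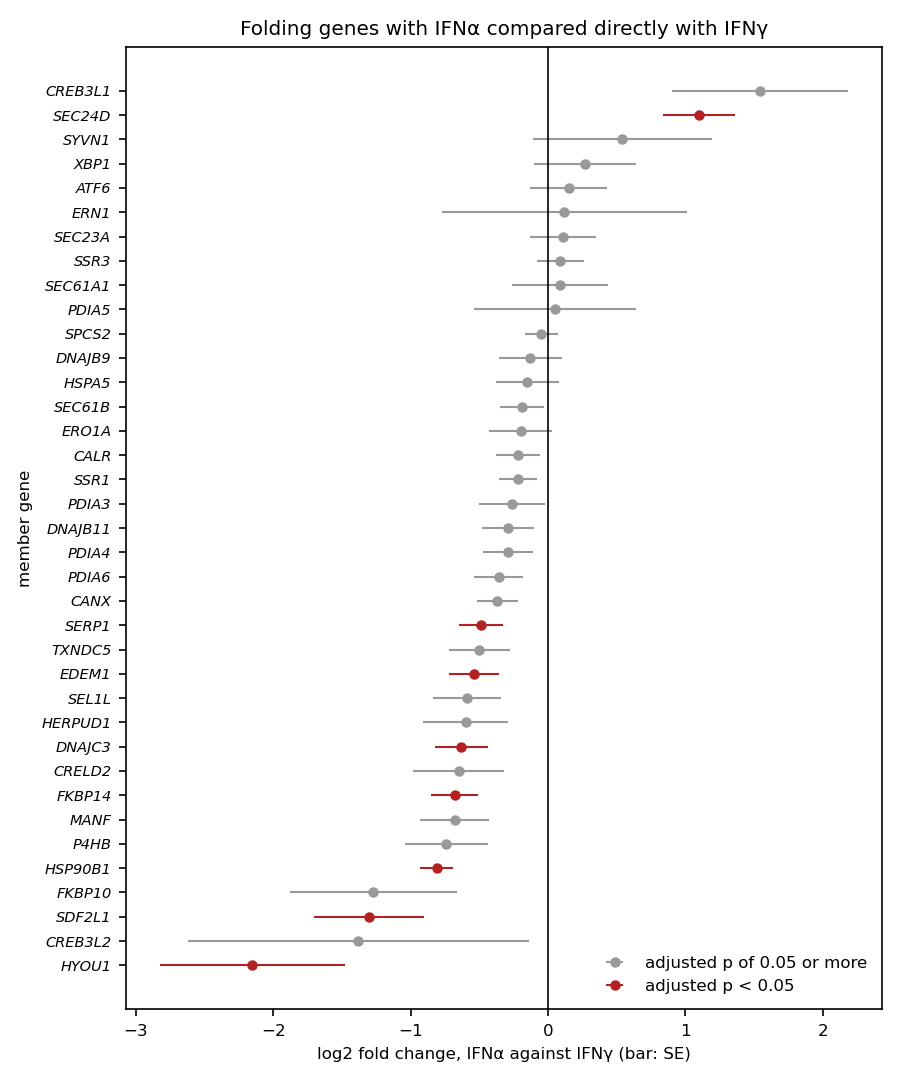
Points are log2 fold changes of IFNα against IFNγ for the 37 members tested, ordered by value, bars are their SE, and red marks an adjusted p under 0.05. Of the 8 red points, 7 lie below 0, from HYOU1 at -2.15 to SERP1 at -0.49, and SEC24D lies above 0 at 1.10.

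Other ER genes were called in both directions with the interferons, where 4.99% of all genes rose and 4.86% fell with IFNα and 5.52% rose and 5.13% fell with IFNγ. Of 19 other translocon subunits, 1 rose and 1 fell with each. Of 14 other degradation genes, 1 rose and 1 fell with IFNα and 0 rose and 1 fell with IFNγ, and the smallest adjusted p was that of SELENOS, a selenoprotein of the degradation complex, with IFNα (log2 fold change 0.79) and that of UBE2J1, a ubiquitin-conjugating enzyme of the ER membrane, with IFNγ (-0.70). KDELR3, a receptor that returns KDEL-tailed chaperones to the ER, was the gene called among 20 exit genes and fell with both, from 209 ± 29.2 CPM (SD, n = 4) to 103 ± 26.0 with IFNα and 120 ± 20.3 with IFNγ (edgeR adjusted p = 1.94e-05 and 0.00101). Of 20 other folding enzymes, 3 rose and 1 fell with IFNα and 3 rose and 0 fell with IFNγ. With IFNα the smallest adjusted p of these was that of ERP44, which retains folding intermediates (log2 fold change 0.71), and DNAJC1, a J-domain protein of the ER membrane, had the larger rise (1.76), named after its value was seen. In the PERK and amino acid response arm 1 of 11 genes fell with IFNα and 2 fell with IFNγ, and 0 rose. The list medians were 0.06 and 0.40, opposite in sign to these calls. Of the fibroblast markers, 2 of 10 fell with each interferon. The 3 proliferation markers fell with both, from a summed 233 to 312 CPM in unstimulated cells to 28.6 to 44.6 CPM with IFNα and 93.9 to 173 CPM with IFNγ, and the part of either list in the members' changes was not tested.

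IL-13 raised calreticulin and 0 other members, and lowered 0, while 1.53% of all genes rose and 2.40% fell. CALR, a lectin chaperone that also buffers ER calcium, was at 3959, 5896, 6273 and 5648 CPM without stimulation and at 9584, 9662, 8022 and 8153 CPM with IL-13. The groups were separate (log2 fold change 0.70 ± 0.16, edgeR adjusted p = 0.00626), and the call held in all 8 fits that leave out a library. It was lost when the model held only these 2 groups (adjusted p = 0.0528). Without unstimulated replicate 3 the count of members called was 3, and the share of all genes in that fit is not given. The members' median log2 fold change was 0.24, against -0.05 over all genes. In the PERK and amino acid response arm 3 of 11 genes rose with IL-13 and 0 fell. The smallest adjusted p was that of DDIT3, the stress transcription factor CHOP, which rose from 121 ± 10.5 to 214 ± 17.0 CPM (SD, n = 4, log2 fold change 0.82 ± 0.19, edgeR adjusted p = 0.0072). The 3 proliferation markers fell with IL-13, to a summed 44.5 to 87.0 CPM, and 2 of 10 fibroblast markers rose, with a summed 41425 to 53372 CPM against 30255 to 42205 CPM, and their part in the rise of CALR was not tested.

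TGF-β1 raised 3 members and lowered 0, against 2.61% and 3.08% of all genes. SEC61B was at 232, 217, 155 and 129 CPM, of which the last lay within the unstimulated range of 111 to 142 CPM (log2 fold change 0.55 ± 0.16, edgeR adjusted p = 0.0268). MANF was at 115, 115, 99.8 and 35.2 CPM, again with replicate 4 inside the unstimulated range (0.83 ± 0.25, edgeR adjusted p = 0.0412). SERP1 was at 317, 268, 210 and 225 CPM without stimulation and at 453, 401, 319 and 293 CPM with TGF-β1 (0.52 ± 0.16, edgeR adjusted p = 0.042). Replicate 4 was the lowest library in all 3. The 3 calls were lost together without unstimulated replicates 2 or 4, or without TGF-β1 replicates 1 or 2, with log2 fold changes of 0.41 to 0.88 in the fits that lost them. They were also lost in a model of these 2 groups alone. The count rose to 5 without unstimulated replicate 1 and to 6 without TGF-β1 replicate 4, and the shares of all genes in those fits are not given. Of the fibroblast markers, 4 of 10 fell and 1 rose with TGF-β1 (summed 27025 to 32867 CPM), 2 of 3 proliferation markers fell (summed 102 to 135 CPM), and their part in these rises was not tested.

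Between IL-13 and TGF-β1, compared directly, 5 members were higher with IL-13 and 0 were lower, against 6.39% and 6.05% of all genes, and the members' median difference was -0.01. CALR was at 8022 to 9662 CPM with IL-13 and at 4648, 3884, 5478 and 5591 CPM with TGF-β1 (log2 fold change 0.85 ± 0.16, edgeR adjusted p = 0.000173). PDIA4 was at 487, 532, 362 and 400 CPM against 181, 233, 264 and 348 CPM (0.80 ± 0.18, edgeR adjusted p = 0.00155). In both genes the groups were separate.

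SEL1L, the adaptor of the HRD1 degradation complex, was at 603, 778, 402 and 505 CPM with IL-13 and at 214, 174, 205 and 436 CPM with TGF-β1 (log2 fold change 1.15 ± 0.26, edgeR adjusted p = 0.00138). EDEM1 was at 283, 209, 193 and 257 CPM against 131, 129, 132 and 200 CPM (0.66 ± 0.18, edgeR adjusted p = 0.0074). Replicate 4 of TGF-β1 stood apart in both of these degradation genes and made the overlap. DNAJC3 was at 2226, 2301, 1689 and 1727 CPM against 891, 922, 1525 and 2011 CPM (0.57 ± 0.19, edgeR adjusted p = 0.0439), and its call was lost without replicates 1 or 2 of either group (0.41 to 0.51). The other 4 calls held whichever library was left out. Of the fibroblast markers, 7 of 10 were higher with IL-13 than with TGF-β1 and 1 was lower, and their part in these differences was not tested.

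IL-17A lowered FKBP14 and called no other member, where 0.599% of all genes rose and 0.925% fell. FKBP14 was at 112, 78.8, 90.5 and 102 CPM against 170, 192, 105 and 143 CPM, which overlap at 1 library of each group (log2 fold change -0.67 ± 0.16, edgeR adjusted p = 0.0221). The call was lost without unstimulated replicates 1 or 2 or IL-17A replicates 2, 3 or 4 (-0.69 to -0.53), in a model of these 2 groups, and with all genes of any count. Without unstimulated replicate 3 the count was 3 members, and the share of all genes in that fit is not given. Of the fibroblast markers, 2 of 10 fell with IL-17A (summed 35133 to 37220 CPM), and their part in the fall of FKBP14 was not tested. In the PERK and amino acid response arm 0 of 11 genes tested rose with IL-17A and 2 fell. Of these, DDIT3 had the smallest adjusted p (log2 fold change -1.08 ± 0.20, edgeR adjusted p = 0.00168). HERPUD1, a degradation scaffold, was at 131, 137, 176 and 125 CPM with IL-17A and at 455, 285, 174 and 223 CPM without stimulation (-1.01 ± 0.31, edgeR adjusted p = 0.101), and it was chosen for mention after its values were seen.

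OSM, IL-6 and IL-22 called 0 members by edgeR. With OSM, 1.42% of all genes rose and 2.54% fell, and 7 members had an unadjusted p under 0.05. With IL-6, 0.0105% of all genes rose and 0.0% fell, and 0 members and 233 genes in all had such an unadjusted p. With IL-22, 0.0% of all genes rose and 0.0% fell, and 5 members and 1037 genes in all had such an unadjusted p. DESeq2 also called 0 members in each, but it gave no adjusted p for 2 members with OSM and 9 with IL-22, which could not be called. The members' median log2 fold change was 0.18 with OSM, 0.04 with IL-6 and -0.07 with IL-22.

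Of the 37 members tested, 17 were called in no comparison with unstimulated cells. They included all 5 sensors and factors tested, ERN1, ATF6, XBP1, CREB3L1 and CREB3L2. ATF6 group means ran from 54.0 CPM with IL-17A to 86.1 CPM with OSM, and XBP1 means from 36.4 CPM with IL-22 to 70.5 CPM with OSM. ERN1 was near the limit of measurement, with group means from 0.885 to 7.19 CPM and 222 counts in all libraries together. CREB3L1 means ran from 3.80 to 16.2 CPM. Gene-level counts do not resolve the spliced form of XBP1.

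CREB3L2 was erratic within groups, at 38.2, 0.0, 64.0 and 5.46 CPM in unstimulated cells and at 0 in 17 of 44 libraries. It was at 27.5, 61.1, 40.5 and 78.2 CPM with TNF, and at 0 in 3 of 4 IL-22 libraries. Its log2 fold changes, which reached -5.82 with IL-22, were the most extreme of the members against unstimulated cells and were not called (adjusted p = 0.209 for that comparison).

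Of the disulfide and isomerase genes, PDIA3 (group means 933 to 1689 CPM), P4HB (35.5 to 84.2), PDIA5 (5.89 to 18.8), ERO1A (264 to 433) and FKBP10 (6.83 to 17.5) were called with no cytokine. Nor were the stress-inducible CRELD2 (25.1 to 54.6), the degradation genes HERPUD1 (142 to 383), SEL1L (257 to 572) and SYVN1 (4.04 to 10.6), the entry genes SEC61A1 (32.0 to 51.3) and SSR3 (225 to 351), or the coat gene SEC23A (127 to 186). Of these 17, CRELD2, PDIA3, P4HB, CREB3L2, HERPUD1 and SEL1L differed somewhere among the 11 groups, with adjusted p of 0.0267, 0.0471, 0.0102, 0.0237, 0.0182 and 0.00537.

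As a sum, the 38 members held a median of 1.75% of all counts in unstimulated libraries (range 1.59% to 1.93%). The share was highest with IL-1β, at a median of 2.40% (2.13% to 2.45%), then TNF at 2.20% (2.06% to 2.34%), IFNγ at 2.10% (1.78% to 2.22%) and IL-13 at 2.01% (1.91% to 2.17%). The IL-1β and TNF libraries were all above the unstimulated ones. IFNα was lowest, at 1.58% (1.45% to 1.67%), and overlapped them. OSM stood at 1.92%, TGF-β1 at 1.79%, IL-17A and IL-6 at 1.78% and IL-22 at 1.74%. The share is weighted towards abundant members, and CALR alone supplied 403311 counts over all libraries, against 142630 for HSP90B1 and 658 for HYOU1.

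**Figure D5:**
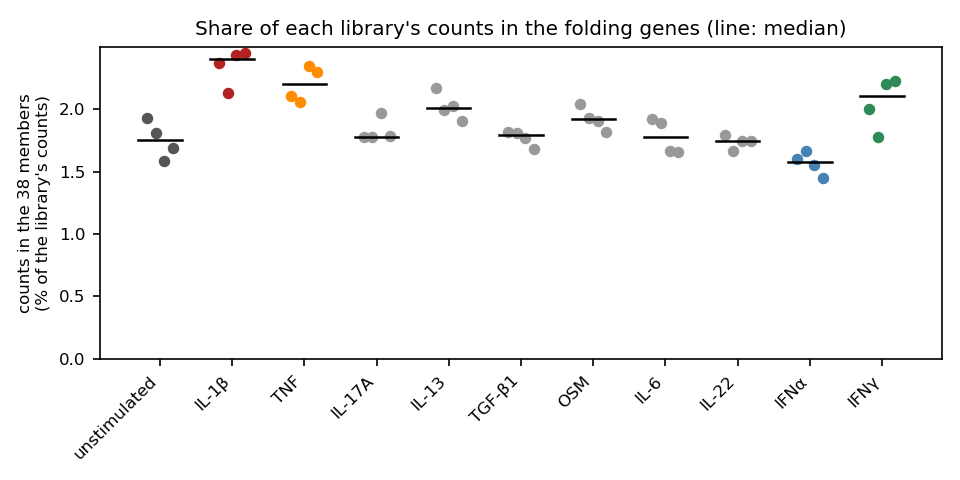
Points are the counts in the 38 members as a percentage of each library's total, by group along the x axis, and lines are group medians. IL-1β libraries lie between 2.13% and 2.45% and TNF libraries between 2.06% and 2.34%, above the unstimulated range of 1.59% to 1.93%.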

How the data were processed

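Reads were checked by the authors with FastQC (version 0.11.9) and MultiQC (version 1.14) and quantified with kallisto (version 0.48.0), and the deposited table gives estimated counts per gene symbol for each of 44 libraries, not scaled for depth. The labels name hg38; the transcript set and the use of strand are not given in the sources used here. Reads shared with near-identical copies, such as the pseudogenes of HSP90B1 and PDIA3, may be split between symbols, which makes those levels uncertain.

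From the deposited counts, rounded to whole numbers, genes were kept by filterByExpr (9513 genes) and scaled by edgeR's TMM factors. All libraries were fitted in 1 quasi-likelihood model in edgeR (version 4.0.16, R version 4.3.3; common biological coefficient of variation 0.331). A gene was called at a Benjamini-Hochberg adjusted p under 0.05 within a comparison. SE is the log2 fold change divided by the square root of F. CPM are computed from the scaled library sizes. The code was tested on simulated data. The members, the lists of other ER genes and the tests were chosen with earlier results of these data known. In each comparison the 5 called members of smallest adjusted p are given in full, and of each other list the called gene of smallest adjusted p may be named. Alternatives were DESeq2 (version 1.42.0), its size factors, 2 other filters, only the groups compared, a block for replicate number, the study's fold threshold and leaving out each library.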

Additional observations from a re-analysis of the deposited data

Results flagged for a closer look

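Of 68 sets of 4 libraries examined (the members' share of counts in each group, and the members given in full in the groups compared), 3 held a library far from the other 3 by Dixon's test, and chance marks about 5% of such sets. Replicate 3 of IL-17A had 1.97% of its counts in the 38 members, where the other IL-17A libraries had close to 1.77%. Replicate 4 of TGF-β1 stood at 436 CPM for SEL1L and at 200.0 CPM for EDEM1, where the other TGF-β1 libraries were at 174 to 214 CPM and 129 to 132 CPM. Without that library both genes remained called in IL-13 against TGF-β1.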

How the results depend on the processing

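Limits are the shallow libraries and 4 replicates a group of 1 cell line. Of the 35 changes given in full, 0 reversed in any of the 14 to 16 refits of each, and 19 were called in all of them. Over these 510 refits, 447 kept the call and 63 lost it. The study's fold threshold is no refit and is not among them: 4 of the 35 had an absolute log2 fold change above 1.5, and 2 of the 19 did. The counts below are members called, of 37, and the cause of their moves was not tested. Unless a share of all genes is printed beside a count, a move in that count may not be particular to the members. This holds also for counts in refits given above.

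With an absolute log2 fold change above 1.5 the counts were 0 for IL-1β, 3 for TNF, 0 for IL-17A, 0 for IL-13, 0 for TGF-β1, 0 for IFNα, 2 for IFNγ, 1 for IFNα against IFNγ and 0 for IL-13 against TGF-β1. The DESeq2 Wald test gave 2 for IL-17A, 2 for IL-13, 5 for TGF-β1 and 8 for IFNγ. DESeq2 size factors gave 2 for IL-13 and 8 for IFNγ. All genes with any count gave 2 for IL-13, 2 for OSM, 1 for IL-22 and 1 for TNF against IL-1β. A model of only the groups compared gave 0 for IL-17A, 0 for IL-13, 0 for TGF-β1, 2 for IFNγ, 1 for TNF against IL-1β and 3 for IFNα against IFNγ. Chosen after the data were seen, IFNγ gave 9 without its replicates 1 and 2, where 13.7% of all genes were called, and 0 without its replicates 3 and 4, where 3.78% were.

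Leaving out each library in turn gave 0 to 3 for IL-17A, 1 to 3 for IL-13, 0 to 6 for TGF-β1, 4 to 8 for IFNα, 4 to 8 for IFNγ, 3 to 7 for IFNα against IFNγ, 7 to 12 for IL-1β, 9 to 11 for TNF, 4 to 7 for IL-13 against TGF-β1 and 24 to 27 for any difference among groups. It gave 0 in every fit for OSM, IL-6, IL-22 and TNF against IL-1β.

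Replicate numbers did not pair the libraries throughout. Deviations of same-numbered cytokine and unstimulated libraries correlated between -0.086 and 0.281, and 15 of 40 cytokine libraries correlated best with their own number. Each had only 4 unstimulated libraries to match, so some would match their own number by chance. Matches ran from 3 of 4 libraries with IL-6 to 0 of 4 with IFNγ. The highest correlations were those of replicate 1 of IL-6, IFNα and OSM, at 0.281, 0.277 and 0.250. These libraries thus shared some variation with unstimulated replicate 1. A replicate block gave 2 for IL-17A, 2 for IL-13 and 5 for TGF-β1, and left the other counts within 1.5 times.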
